A study of Mus musculus with 60 samples.

Results

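Nascent RNA was compared between neuronal progenitor cells (NPCs) in which the cohesin subunit RAD21 had been degraded for 4 h and untreated NPCs of the same line. The comparison was chosen by its samples alone, 4 of the 60 libraries of the series: 2 control libraries and 2 libraries made after 4 h of 500 µM IAA, an auxin that triggers destruction of proteins carrying an auxin-inducible degron (AID). Every library in both groups came from mouse cells with the genotype GFP-AID-Rad21, so the controls carry the tagged RAD21 as well, and they were either untreated or given the solvent DMSO. No library of the series came from IAA-treated cells without a degron, so effects of IAA and of RAD21 loss cannot be told apart. The NPCs were made in culture from RAD21-AID mouse embryonic stem cells (mESCs), through epiblast stem cells, and were grown with FGF2 and EGF. Newly made RNA was labelled with 0.5 mM 5-ethynyl uridine (EU) during the last 20 min, captured and sequenced (EU-seq), so that a count reflects transcription during the pulse more than the stock of mature RNA. Of the transcripts in the deposited table, 16148 had a mean count above 20 in either group and were tested. Nothing in the labels says that the 2 replicates of a group came from separate cultures, so the p values measure only the spread between these libraries.

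Cohesin is a ring-shaped complex that extrudes DNA into loops until it meets barriers such as CTCF, and it also holds sister chromatids together. RAD21 is the subunit that closes the ring, so its loss removes the loop-extruding activity of the whole complex. Loops are thought to bring distant enhancers near promoters, and neural genes, many of which are long and lie in regions with few other genes, are among those studied for such long-range control. A degron removes the protein within hours and leaves the gene itself intact, so the RNA of *Rad21* does not report on the loss of its product.

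Total counts were 18879085 and 21351965 in the controls and 18169292 and 16946777 after 4 h of IAA, and the log2 values of CPM (counts scaled to a common library total) of the 2 replicates of a group correlated at 0.997 across genes in both groups. Of 12 neural progenitor markers, 10 were above 15 TPM (a level scaled to the library total and to the length of the counted gene body), led by *Vim* at 1253 and 1317 TPM in the controls and *Fabp7* at 775 and 849 TPM. *Sox2*, a transcription factor of neural stem cells, was at 275 and 276 TPM, *Nes*, an intermediate filament of these cells, at 211 and 275 TPM, and *Pax6* at 6.56 and 7.29 TPM. The 10 pluripotency markers summed to 87.7 to 96.9 TPM in the controls and 66.0 to 78.4 TPM after IAA. Of the neural crest and mesenchyme markers, 8 of 10 were above 15 TPM. Their summed level of 2438 to 2704 TPM in controls and 2256 to 2298 TPM after IAA was near the 2816 to 3040 and 3261 to 3319 TPM of the neural progenitor markers, with the collagen *Col3a1* at 808 and 921 TPM and *Col1a1* at 704 and 815 TPM in the controls, while *Foxd3* was at 0.41 and 1.12 TPM. The libraries labelled NPC thus held RNA of both neural progenitor and mesenchymal genes. The 6 astrocyte markers summed to 329 to 340 TPM in controls and 203 to 208 TPM after IAA. Most of this was *Gja1*, at 303 and 288 TPM and then 172 and 177 TPM. The 10 neuron markers summed to 89.3 to 91.4 and 99.5 to 99.9 TPM. Among them *Tubb3* rose from 39.8 and 39.4 to 53.6 and 46.9 TPM, while their median log2 fold change was −0.31. The oligodendrocyte markers were at 126 to 130 and 158 to 160 TPM, mostly from *Pdgfra* at 101 and 101 TPM in controls and 127 and 129 TPM after IAA. The epiblast markers were at 68.5 to 70.1 and 86.4 to 87.5 TPM, and the mesendoderm markers at 29.7 to 36.8 and 29.2 to 31.0 TPM with *Sox17* at 0. The endothelial and blood markers were at 6.66 to 6.95 and 7.54 to 7.73 TPM with *Hbb-bs* at 0. The part of these markers in the results was not tested. In bulk libraries, fewer cells of a type and less RNA per cell cannot be told apart.

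The transcripts of *Rad21* and of the 14 other cohesin genes and regulators were not called in either direction, where a call takes 2-fold or more together with an adjusted p below 0.05. *Rad21* (chromosome 15, 51962240 to 51991747, mm10) gave 186 and 197 CPM in the controls and 212 and 209 CPM after IAA, a log2 fold change of 0.10 (SE 0.039). The cohesin ATPases *Smc1a* and *Smc3* had log2 fold changes of −0.09 and −0.06, the loader subunits *Nipbl* and *Mau2* of 0.02 and 0.07, the release factor *Wapl* of −0.08, and *Ctcf*, the barrier factor, of −0.05. *Cdca5*, which protects cohesin on chromatin, was at 0.04, the acetyltransferases *Esco1* and *Esco2* at 0.21 and 0.12, and the deacetylase *Hdac8* at −0.21. The 4 libraries did not overlap for *Stag1*, one of a pair of alternative subunits, at 628 and 614 CPM in controls and 768 and 835 CPM after IAA (log2 fold change 0.34, SE 0.040). The other, *Stag2*, had a log2 fold change of −0.02. The regulators *Pds5a* and *Pds5b* were at −0.23 and −0.46.

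After 4 h of IAA, 444 transcripts were called lower, 2.75% of those tested, and 132 were called higher, or 0.817%. The calls stand for 438 and 132 gene symbols, because some genes are counted over several transcripts. Among transcripts called lower, 60 of 444 fell at least 4-fold, and the median fall was 1.35 on the log2 scale. Of those called higher, 12 rose at least 4-fold with a median log2 fold change of 1.24. With an adjusted p under 0.05 and no fold threshold, 3412 transcripts were lower (21.1%) and 2971 higher (18.4%). In each of the 444 lower transcripts both IAA libraries lay below both controls. In 131 of the 132 higher ones both lay above, but the groups also failed to overlap in 68% of all transcripts tested. The 2 directions differed in the kind of gene: 407 of 444 lower transcripts were protein coding, with a median of 18.4 CPM in controls, against 72 of 132 higher ones, with a median of 1.21 CPM. A gene on the other strand overlapped 11.5% of the lower, 12.1% of the higher and 17.2% of all tested transcripts, and the counts of such pairs are uncertain. With a mean count above 100 required, 339 transcripts were lower and 44 higher.

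**Figure D1:**
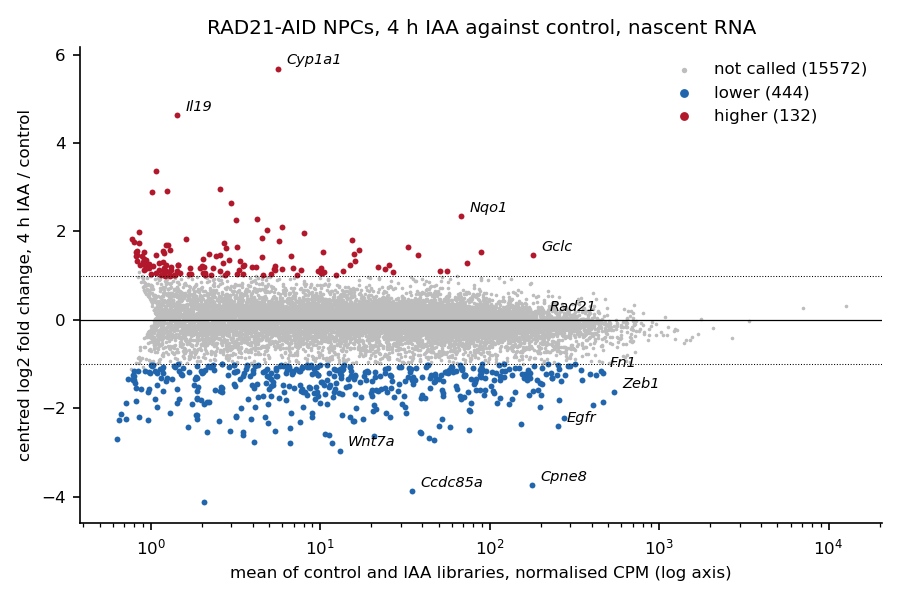
Centred log2 fold change of 4 h IAA over control against the mean normalised CPM of both groups (log axis), 1 point per tested transcript, with calls in colour and dotted lines at 2-fold. Lower calls (444) spread over the whole range of levels, while most of the 132 higher calls lie at low levels.

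The 12 largest falls were taken among genes with a mean count of at least 100 in a group. *Ccdc85a*, a coiled-coil protein gene (chromosome 11, 28385692 to 28584324), went from 65.1 and 64.8 CPM in the controls to 4.76 and 4.20 CPM after IAA, which is −3.88 on the log2 scale (SE 0.092; adjusted p from edgeR 1.22e-24). *Cpne8*, which encodes a calcium-dependent membrane-binding copine (chromosome 15, 90487483 to 90679432), went from 341 and 321 CPM to 25.8 and 24.5 CPM, or −3.75 on the log2 scale (SE 0.051, adjusted p = 1.28e-30). In both genes the IAA libraries lay far below the controls, and the replicates of each group were close together. *Wnt7a*, a secreted ligand of the Wnt pathway (chromosome 6, 91363981 to 91411363), went from 24.4 and 21.7 CPM to 3.37 and 2.65 CPM (log2 fold change −2.96, SE 0.14). *Dapk2*, a calmodulin-regulated kinase, went from 21.2 and 19.7 CPM to 3.05 and 2.94 CPM (−2.80, SE 0.14). The IAA libraries of these genes were close to each other.

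*Kcnd2* and *Kcnc1* encode voltage-gated potassium channels. *Kcnd2* gave 83.4 and 79.0 CPM in controls and 11.2 and 13.9 CPM after IAA (log2 fold change −2.73, SE 0.076), and *Kcnc1* gave 34.4 and 36.7 against 5.40 and 6.28 CPM (−2.64, SE 0.10). *Grin2a*, a subunit of NMDA-type glutamate receptors, gave 17.9 and 18.4 against 2.62 and 3.63 CPM (−2.58, SE 0.15). *Cntnap4*, a neurexin-family adhesion protein, gave 11.9 and 11.1 against 1.61 and 1.79 CPM (−2.79, SE 0.18). *Col25a1*, a membrane-bound collagen of neurons, gave 77.2 and 74.6 against 11.4 and 12.8 CPM (−2.68, SE 0.073). In all 5 the groups stood far apart. The 12 were completed by *Abca8a*, a lipid transporter, from 19.0 and 19.6 to 3.26 and 3.17 CPM (−2.62, SE 0.14), by *Ch25h*, which makes 25-hydroxycholesterol, from 8.35 and 5.92 to 0.856 and 1.27 CPM (−2.77, SE 0.25), and by *Edn1*, the precursor of the peptide endothelin-1, from 7.59 and 4.48 to 1.28 and 0.691 CPM (−2.61, SE 0.29). The controls of *Ch25h* and *Edn1* were further apart than those of the other genes.

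**Figure D2:**
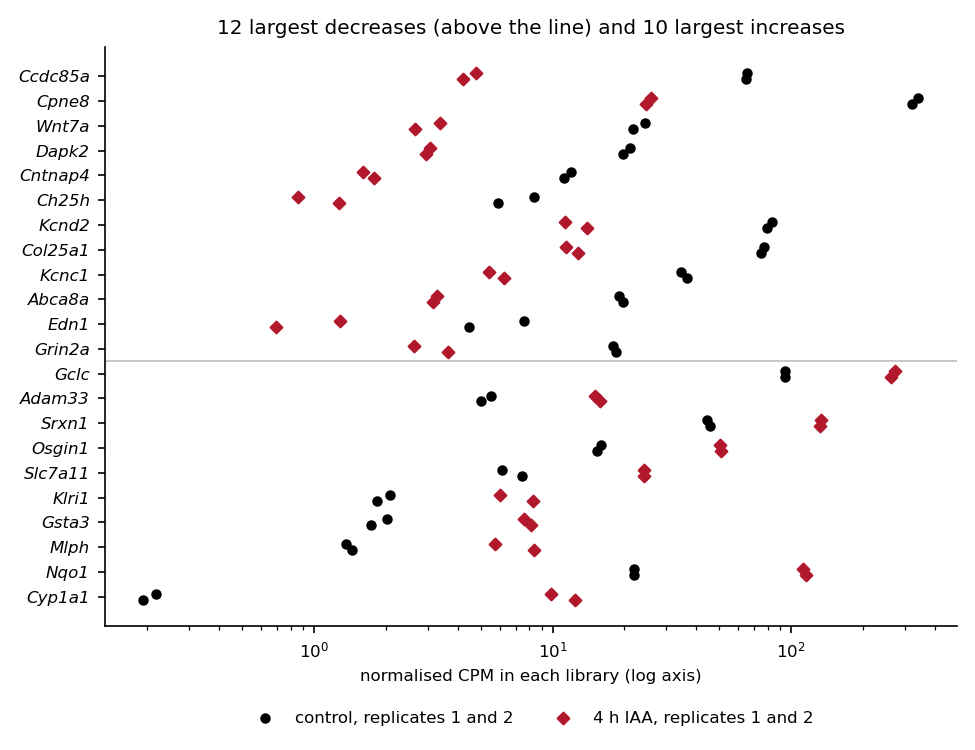
Normalised CPM (log axis) in each of the 4 libraries for the 12 largest decreases and the 10 largest increases among called genes with at least 100 mean counts in a group. Black circles are controls and red diamonds 4 h IAA, and in all 22 genes both IAA libraries lie on the same side of both controls.

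The genes with the highest signal among those called lower fell less far. *Zeb1*, a zinc finger repressor that holds cells in a mesenchymal or undifferentiated state, went from 815 and 809 CPM to 268 and 268 CPM (log2 fold change −1.63, SE 0.037). *St3gal1*, a sialyltransferase, went from 744 and 720.2 to 209 and 202 CPM (−1.86, SE 0.039), and *Setbp1*, a SET-binding nuclear protein, from 655 and 632 to 166 and 179 CPM (−1.93, SE 0.040). The replicates of each group differed little in these 3 genes, and the groups did not overlap. *Peak1*, a pseudokinase of the cytoskeleton, went from 644 and 641 to 281 and 294 CPM (−1.19, SE 0.037), *Fn1*, the matrix protein fibronectin, from 631 and 624 to 292 and 280.5 CPM (−1.16, SE 0.037), and *Igfbp5*, which binds insulin-like growth factors, from 576 and 611 to 258 and 248 CPM (−1.26, SE 0.039).

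Among genes called higher, *Cyp1a1*, a cytochrome P450 that oxidises aromatic compounds, stood apart. It had 4 and 4 counts in the controls (0.218 and 0.193 CPM) and 9.85 and 12.4 CPM after IAA, or 5.69 on the log2 scale (SE 0.30, adjusted p = 2.72e-16 in edgeR). The size of this change rests on these few control reads, and its SE may be too small. *Nqo1*, a quinone reductase, went from 21.9 and 22.01 to 112 and 115 CPM (2.34, SE 0.057). *Gclc*, the catalytic subunit of the enzyme that starts glutathione synthesis, went from 93.9 and 94.4 to 273 and 262 CPM (1.47, SE 0.040), and *Slc7a11*, the cystine transporter that feeds it, from 6.12 and 7.42 to 24.2 and 24.2 CPM (1.80, SE 0.11). *Srxn1*, which reduces oxidised peroxiredoxins, went from 44.2 and 45.7 to 134 and 133 CPM (1.54, SE 0.048), *Osgin1*, an oxidative stress-induced gene, from 15.9 and 15.4 to 50.2 and 50.8 CPM (1.66, SE 0.074), and *Gsta3*, a glutathione transferase, from 2.02 and 1.73 to 7.60 and 8.12 CPM (2.04, SE 0.20). Glutathione transferases have close paralogs. The study removed reads of low mapping quality, so reads that match *Gsta3* and a paralog alike may be missing. *Slc26a2*, a sulphate transporter and the fourth of the higher genes with the most signal, went from 43.4 and 41.8 to 106 and 104 CPM (1.28, SE 0.051). The other increases of this group were *Mlph*, a linker of melanosomes to myosin (log2 fold change 2.28, SE 0.24), the lectin-like receptor *Klri1* (1.84, SE 0.21) and the metalloprotease *Adam33* (1.53, SE 0.13).

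The aryl hydrocarbon receptor (AHR) is a ligand-activated transcription factor that binds DNA at sites with the core GCGTG and induces enzymes that clear aromatic compounds. Of 7 listed targets, 4 could be tested. *Cyp1a1*, *Nqo1* and *Ahrr*, the repressor that feeds back on the receptor, rose, the last from 2.02 and 1.78 to 4.82 and 4.90 CPM (log2 fold change 1.32, SE 0.22). *Tiparp*, an ADP-ribosyltransferase that also acts on the receptor, was not called at 98.6 and 90.7 against 128 and 129 CPM (0.41, SE 0.045). The list's median log2 fold change was 1.83 against −0.02 over all transcripts tested. The receptor's own gene moved the other way: *Ahr* (chromosome 12, 35497974 to 35535038), named here after its values were seen, fell from 67.4 and 64.7 to 11.5 and 11.7 CPM (−2.54, SE 0.075). *Gm48236*, a transcript on the other strand that overlaps its start, fell from 2.73 and 3.03 to 0.803 and 0.922 CPM (−1.77, SE 0.30). The libraries are not labelled as strand-specific, so reads of this pair cannot be told apart where they overlap.

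The bases directly upstream of the start of these 4 targets, and of the lower genes *Ccdc85a* and *Wnt7a* for contrast, are shown 5′ to 3′ from RefSeq promoters (GRCm38.p6), with GCGTG on either strand (read as CACGC on the other) and TATAAA in capitals. They run over chr9:57697363-57697612 on the plus strand for *Cyp1a1*, chr13:74292332-74292581 on the minus strand for *Ahrr*, chr8:107403207-107403455 on the minus strand for *Nqo1*, chr3:65528197-65528409 on the plus strand for *Tiparp*, chr11:28584325-28584574 on the minus strand for *Ccdc85a* and chr6:91411364-91411603 on the minus strand for *Wnt7a*.
Cyp1a1: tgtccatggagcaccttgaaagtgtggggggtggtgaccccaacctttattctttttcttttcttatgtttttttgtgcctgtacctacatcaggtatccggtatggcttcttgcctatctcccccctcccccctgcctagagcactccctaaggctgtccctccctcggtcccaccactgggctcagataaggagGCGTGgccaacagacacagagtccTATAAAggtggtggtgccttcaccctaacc
Ahrr: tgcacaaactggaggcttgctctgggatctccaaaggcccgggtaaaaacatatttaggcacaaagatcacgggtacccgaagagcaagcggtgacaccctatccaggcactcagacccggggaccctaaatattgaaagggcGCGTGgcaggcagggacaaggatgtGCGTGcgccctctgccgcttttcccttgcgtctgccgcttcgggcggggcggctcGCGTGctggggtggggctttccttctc
Nqo1: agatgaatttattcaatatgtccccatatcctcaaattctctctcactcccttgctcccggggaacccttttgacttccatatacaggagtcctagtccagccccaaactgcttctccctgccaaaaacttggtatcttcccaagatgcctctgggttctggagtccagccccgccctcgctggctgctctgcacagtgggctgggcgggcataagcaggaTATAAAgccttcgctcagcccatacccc
Tiparp: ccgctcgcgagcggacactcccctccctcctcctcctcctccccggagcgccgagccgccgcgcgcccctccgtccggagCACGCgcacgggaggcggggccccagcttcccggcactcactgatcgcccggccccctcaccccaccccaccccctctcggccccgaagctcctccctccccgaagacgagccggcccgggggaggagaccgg
Ccdc85a: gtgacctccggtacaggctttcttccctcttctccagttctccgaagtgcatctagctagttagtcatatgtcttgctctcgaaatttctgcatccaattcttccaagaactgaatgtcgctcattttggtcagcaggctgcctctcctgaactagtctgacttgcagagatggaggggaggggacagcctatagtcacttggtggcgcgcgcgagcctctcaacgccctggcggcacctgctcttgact
Wnt7a: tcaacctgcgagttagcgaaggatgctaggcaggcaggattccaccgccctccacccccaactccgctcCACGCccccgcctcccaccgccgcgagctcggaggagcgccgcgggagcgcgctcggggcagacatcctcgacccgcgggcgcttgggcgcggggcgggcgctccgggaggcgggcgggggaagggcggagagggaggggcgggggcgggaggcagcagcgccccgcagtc
*Cyp1a1* has 1 GCGTG and 1 TATAAA, *Ahrr* has 3 GCGTG, *Tiparp* and *Wnt7a* have 1 each on the other strand, *Nqo1* has 1 TATAAA and no GCGTG and *Ccdc85a* has neither. An upstream window of up to 250 bases could be matched for 10998 tested transcripts and was searched on both strands. A match is a match of letters, not evidence of binding. GCGTG was in 45.3% of all of them, in 42.0% of the 269 lower and in 33.3% of the 69 higher ones, so it was common in all of them. TATAAA was in 6.31% of all, 10.0% of lower and 15.9% of higher windows, the AP-1 site TGACTCA in 3.00%, 2.60% and 10.1%, and the E-box CACGTG in 8.37%, 6.32% and 7.25%. The median number of CpG was 16 over all windows, 13 in lower and 6 in higher ones.

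Secreted ligands were examined next, since NPCs depend on signals from each other and from the medium. Calls in this and the following lists are to be read against the 2.75% lower and 0.817% higher of all transcripts tested. Of 33 tested genes of the Wnt pathway, 3 were called lower and 0 higher, and all 3 are ligands. Besides *Wnt7a*, *Wnt11* fell from 8.03 and 7.56 to 1.498 and 1.96 CPM (log2 fold change −2.20, SE 0.21), and *Wnt7b* from 17.7 and 19.2 to 9.20 and 9.45 CPM (−1.02, SE 0.11), the last close to the 2-fold threshold and not called without control replicate 2 (−0.95) or without IAA replicate 1 (−0.99). In the TGF-beta, activin and BMP pathway, 6 of 34 were called lower and 0 higher. *Inhba*, the subunit of activin A, fell from 64.2 and 69.9 to 11.6 and 11.8 CPM (−2.56, SE 0.077), the BMP-like ligand *Gdf10* from 8.08 and 8.28 to 1.71 and 1.61 CPM (−2.33, SE 0.20), the ligand *Tgfb2* from 160.4 and 161 to 68.2 and 68.9 CPM (−1.26, SE 0.044), and the co-receptor *Tgfbr3* from 273 and 268 to 88.2 and 94.1 CPM (−1.60, SE 0.041). Of 39 other growth factors and cytokines, 5 were called lower and 1 higher. The chemokine *Cxcl12* fell from 10.8 and 12.4 to 3.80 and 3.97 CPM (−1.61, SE 0.16), *Hgf*, the ligand of the receptor MET, from 4.10 and 3.71 to 1.34 and 1.38 CPM (−1.55, SE 0.25), and *Nrg3*, a neuregulin, from 19.5 and 17.7 to 8.56 and 9.16 CPM (−1.10, SE 0.11). The cytokine *Il19* had 4 and 0 counts in the controls and 2.78 and 2.76 CPM after IAA, with a fitted log2 fold change of 4.64 (SE 0.52) that rests on these 4 control reads.

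Of 28 tested receptor tyrosine kinases, 4 were called lower and 0 higher, against 2.75% and 0.817% of all transcripts tested. Their median was −0.21, and 24 were not called. By adjusted p alone 13 were lower and 5 higher, where 21.1% and 18.4% of all transcripts tested were. *Egfr*, the receptor of EGF, which the NPC medium contains, fell from 428 and 426 to 82.2 and 82.7 CPM (log2 fold change −2.40, SE 0.040, adjusted p = 2.66e-28 in edgeR). *Kit*, the stem cell factor receptor, fell from 15.1 and 13.9 to 4.33 and 4.26 CPM (−1.78, SE 0.14), *Ntrk2*, the BDNF receptor, from 40.2 and 34.1 to 11.5 and 13.0 CPM (−1.63, SE 0.095), and *Ror1*, a receptor of Wnt ligands, from 125 and 122 to 50.5 and 55.1 CPM (−1.26, SE 0.050). In all 4 the groups were well apart, and the replicates of *Egfr* differed by under 1 CPM after IAA. Of 21 Eph receptors and ephrins, 2 were called lower and 0 higher with a median of −0.02, and 9 were lower and 5 higher by adjusted p alone. Both calls were receptors: *Ephb1* from 99.2 and 96.6 to 18.9 and 18.5 CPM (−2.42, SE 0.061) and *Epha3* from 163 and 159 to 50.3 and 54.5 CPM (−1.65, SE 0.048).

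Axon guidance genes of the semaphorin, slit and netrin families held the most calls of any list, 12 of 44 lower and 1 higher. Across all transcripts tested, 2.75% were called lower and 0.817% higher. The median log2 fold change of the guidance genes was −0.26. *Plxna4*, a semaphorin receptor, fell from 53.1 and 47.5 to 11.4 and 14.7 CPM (−1.98, SE 0.090), and *Nrp1*, its co-receptor, from 284 and 292 to 98.3 and 97.0 CPM (−1.59, SE 0.040). The ligands *Sema3c* and *Ntng1* fell from 34.2 and 31.6 to 8.45 and 9.22 CPM (−1.93, SE 0.097) and from 60.1 and 60.9 to 19.0 and 19.2 CPM (−1.69, SE 0.068). The genes of this list are long, with a median of 119 kb against 24.0 kb over all transcripts tested, and 6 instead of 12 were called lower once a smooth trend of fold change along gene length was subtracted. Cadherins and protocadherins, the calcium-dependent adhesion proteins, had the lowest median of the pathway lists at −0.57 and a median length of 154 kb. Of 23, 3 were called lower and 0 higher: *Cdh8* from 11.9 and 13.4 to 3.26 and 4.72 CPM (−1.71, SE 0.16), *Pcdh18* from 306 and 291 to 117 and 107 CPM (−1.45, SE 0.043) and *Pcdh9* from 215 and 217 to 89.7 and 100.1 CPM (−1.22, SE 0.044).

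Among all transcripts tested, 2.75% were called lower, and by adjusted p alone 21.1% were lower and 18.4% higher. Of 46 extracellular matrix genes, 6 were called lower and 0 higher, with a median of −0.33. Beside *Fn1* these included *Col12a1*, a fibril-associated collagen, from 263 and 257 to 79.9 and 82.3 CPM (−1.71, SE 0.041), *Tnr*, the neural matrix protein tenascin-R, from 28.3 and 25.2 to 10.2 and 10.9 CPM (−1.37, SE 0.10), and *Thbs1*, thrombospondin, from 324 and 313 to 140.2 and 145 CPM (−1.19, SE 0.039). With the trend along length subtracted, 3 instead of 6 matrix genes were called lower. Among 9 tested neural crest and mesenchyme markers, 1 was called lower and 0 higher, namely the repressor *Snai2*, from 39.3 and 40.4 to 10.2 and 8.52 CPM (−2.12, SE 0.092), and 6 were lower and 2 higher by adjusted p alone. Their summed level went from 2438 to 2704 TPM in controls to 2256 to 2298 TPM after IAA, and their part in the matrix result was not tested.

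Retinoic acid is a derivative of vitamin A that patterns the nervous system. Its pathway had 4 of 12 genes called lower, against 2.75% of all transcripts tested, and 0 higher. All 4 are enzymes of retinoic acid metabolism. *Aldh1a2* and *Aldh1a1* make retinoic acid and fell from 15.5 and 13.6 to 3.80 and 3.00 CPM (−2.12, SE 0.15) and from 1.75 and 1.83 to 0.803 and 0.576 CPM (−1.39, SE 0.35). *Dhrs3* reduces its precursor and fell from 85.7 and 87.8 to 19.0 and 18.1 CPM (−2.25, SE 0.063), and *Cyp26b1*, which degrades it, from 6.44 and 5.15 to 1.55 and 1.84 CPM (−1.80, SE 0.23). Genes of synthesis and of breakdown thus moved in the same direction.

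The counts of the next 4 lists are likewise to be read against the 2.75% of all tested transcripts called lower and the 0.817% called higher. Of 14 Hedgehog pathway genes, 2 were called lower and 0 higher: *Hhip*, a membrane antagonist that binds the ligand, from 28.7 and 30.2 to 6.96 and 5.76 CPM (−2.24, SE 0.11) and the co-receptor *Boc* from 381 and 376 to 154 and 143 CPM (−1.38, SE 0.040). Of 24 Notch pathway genes, 2 were called lower and 1 higher. The coactivator *Maml2* fell from 278 and 268 to 99.5 and 117 CPM (−1.37, SE 0.048), and the target *Hey2* from 4.97 and 3.61 to 1.82 and 2.02 CPM (−1.18, SE 0.24), which was not called without control replicate 1 (−0.94). The target *Hes5* had 0.328 and 1.20 CPM in controls and 1.61 and 2.13 CPM after IAA (1.20, SE 0.39). It was not called without control replicate 1 (0.60), without IAA replicate 2 (0.98) or by DESeq2 (adjusted p = 0.0985). Of 13 ERK feedback genes, 1 was called lower, the inhibitor *Spry1*, from 331 and 335 to 136 and 139 CPM (−1.31, SE 0.038), and of 11 genes of the Myc network 1, *Myc* itself, from 69.1 and 63.7 to 30.6 and 27.3 CPM (−1.23, SE 0.066). Neither list had a higher call.

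Calls among neural transcription factors were near the shares over all transcripts tested (2.75% lower and 0.817% higher), which is no result about these genes. Of 34 neural transcription factors 0 were lower and *Hes5* alone was higher, with a median of 0.21. By adjusted p alone 10 were lower and 15 higher, where 21.1% and 18.4% of all transcripts tested were. Of the 12 neural progenitor markers, *Sox1* and *Sox2* were at 19.1 and 18.6 against 29.7 and 29.7 CPM (log2 fold change 0.62, SE 0.081) and 32.7 and 31.7 against 45.2 and 46.6 CPM (0.48, SE 0.065), *Nes* at 114 and 143 against 173 and 156 CPM (0.32), *Pax6* at 0.26 and *Vim* at 0.09. *Slc1a3*, a glutamate transporter, was at 98.6 and 101 against 53.5 and 56.6 CPM (−0.89, SE 0.050), *Cdh2* at −0.36, *Prom1* at −0.35, *Fabp7* at −0.21, *Notch1* at −0.13 and *Msi1* at −0.09. Of 10 neuron markers, the vesicle protein *Syt1* was called lower, from 71.4 and 64.4 to 24.4 and 27.6 CPM (−1.42, SE 0.069), and *Neurod1* higher, from 0.601 and 0.722 to 1.44 and 1.96 CPM (1.31, SE 0.36), though not by DESeq2 (adjusted p = 0.0585) or without IAA replicate 2 (adjusted p = 0.0535). The neuron markers had a median of −0.31, with 6 lower and 2 higher by adjusted p alone. No member was called among the 5 pluripotency, 4 epiblast, 5 astrocyte, 6 oligodendrocyte, 3 mesendoderm and 4 endothelial and blood markers tested, where lists this short would hold hardly any call at the shares over all transcripts. All 5 pluripotency markers tested had negative values, with a median of −0.59 and 3 lower by adjusted p alone. So did all 5 astrocyte markers, with a median of −0.37 and 2 lower, the gap junction gene *Gja1* at −0.85 and the folate enzyme *Aldh1l1* at −0.52.

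Stress genes were called in the higher direction only, 3 of 16, where 0.817% of all transcripts tested were called higher. Beside *Srxn1*, *Hmox1*, which breaks down haem, rose from 30.9 and 32.9 to 70.0 and 71.0 CPM (1.11, SE 0.059), and *Trib3*, a pseudokinase of the amino acid response, from 2.18 and 1.97 to 4.92 and 5.18 CPM (1.25, SE 0.21). Of 28 immediate early genes 1 was called higher, the synaptic gene *Arc* at 5.95 and 6.16 against 13.2 and 13.7 CPM (1.11, SE 0.13), and 14 were higher and 4 lower by adjusted p alone. No member was called in either direction among 29 cell cycle, 19 p53 target, 18 coactivator and pause-release, 16 interferon and NF-kB, 20 cholesterol synthesis, 92 cytosolic ribosomal protein and 37 proteasome genes. By adjusted p alone, however, 15 of the 20 cholesterol genes were higher and 0 lower, with a median of 0.14, and 54 of the 92 ribosomal protein genes were lower and 1 higher, with a median of −0.21 and a range of −0.52 to 0.25. Of the 37 proteasome genes 11 were higher and 0 lower, with a median of 0.06. Counts by adjusted p alone are to be read against the 21.1% lower and 18.4% higher of all transcripts tested.

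The length of the counted gene body moved with the fall. Transcripts called lower had a median length of 122 kb, against 17.4 kb for those called higher and 24.0 kb over all tested. The median log2 fold change was 0.06 for 4032 transcripts under 10 kb, 0.02 for 5131 of 10 to 30 kb, −0.06 for 4539 of 30 to 100 kb, −0.22 for 1814 of 100 to 300 kb and −0.57 for 505 over 300 kb. The share called lower rose over the same bins from 1.44%, 1.15% and 1.81% to 7.00% and 21.8%, while the share called higher went from 1.24% down to 0.396%. Short genes were nevertheless among the calls, with 58 lower transcripts under 10 kb, such as *Ch25h*, *Edn1*, *Snai2*, *Spry1* and *Myc*. Of the 505 longest, only 33 passed 15 TPM, with a median of −0.29, so most of that bin lies outside the genes used for centring. After subtraction of the trend along length, 313 transcripts were called lower, 306 of them among the 444, and 137 higher. That trend too was fitted on transcripts above 15 TPM, so part of the fall of the longest genes may remain after subtraction. In mESCs the same bins, for the transcripts tested there, had medians of 0.05, 0.01, 0.00, 0.02 and 0.12, so the longest genes were not lower in that cell type.

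Called genes had neighbours that were called the same way more often than tested genes as a whole, most clearly at short range. The difference was not tested. Within 100 kb, 8.49% of lower transcripts had another lower gene, against 1.81% of all tested, and 10.7% of higher ones another higher gene, against 1.86%. Of 436 lower transcripts with a known start, 79 (18.1%) had another lower gene starting within 500 kb, whereas 11.8% of all 16021 tested transcripts had one. For the 131 higher ones the share was 17.6%, against 7.76%. Within 1 Mb the shares were 30.5% against 24.8% for lower and 22.9% against 13.6% for higher calls. Some close pairs join a gene and a model transcript beside it, such as *Ahr* and *Gm48236*, which start 0.617 kb apart. Reads of such pairs may be shared, and their part in the shares was not tested. The longest run held 4 genes for lipid transporters of the ABCA family on chromosome 11, with starts 256 kb apart from first to last. Their log2 fold changes were −1.04 (SE 0.12) for *Abca8b*, −2.62 for *Abca8a*, −1.77 (SE 0.046) for *Abca9* and −1.57 (SE 0.16) for *Abca6*. *Abca9* had by far the most signal of the 4, from 180.2 and 174 to 53.8 and 52.4 CPM. The sequences of these paralogs are alike. The study removed reads of low mapping quality, so reads that match several of them may be missing from the counts. This run, and the pair *Sstr4* and *Thbd* on chromosome 2 (−1.97, SE 0.43, and −1.55, SE 0.15), a somatostatin receptor and thrombomodulin that start 12.8 kb apart, were named after their values were seen.

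Shorter IAA treatments of NPCs, for 1 h and 2 h, were set against these controls too, as was a 1 h treatment with A-485 at 10 µM, an inhibitor of the acetyltransferase CBP and its close relative, with 2 libraries each. These comparisons share the controls with the 4 h one, so their values are set side by side only, and the 1 h treatments were counted over no more than the initial 90 kb of each gene. Calls numbered 30 lower (0.189%) and 63 higher (0.397%) at 1 h, and 187 lower (1.17%) and 53 higher (0.331%) at 2 h. The log2 fold change of *Cpne8* was −1.14 at 1 h, −2.33 at 2 h and −3.75 at 4 h, and that of *Ccdc85a* −0.65, −2.08 and −3.88. *Ahr* gave −1.18, −2.01 and −2.54, *Wnt7a* −0.93, −2.30 and −2.96, and *Egfr* −0.42, −1.40 and −2.40. In each of these the value was more negative at each later time. *Ror1* differed from them, at 0.69 and −0.06 before −1.26 at 4 h, as did *Igfbp5*, at −0.07 and −0.19 before −1.26. *Ror1* is 349 kb long. Its 1 h value covers the initial 90 kb, and its 2 h and 4 h values cover the whole gene body. The 2 h libraries of *Igfbp5* lay far apart, at 408 and 648 CPM (SE 0.16). The part of gene length and of this spread in the 2 courses was not tested. The higher genes also fell into different courses, and an effect of IAA apart from RAD21 loss was not tested. *Cyp1a1* was at 6.56, 6.32 and 5.69, *Ahrr* at 2.64, 1.89 and 1.32 and *Tiparp* at 2.24, 0.99 and 0.41, all largest at 1 h, whereas the fourth tested target, *Nqo1*, was at 1.91, 2.26 and 2.34, *Srxn1* was at 0.11, 0.84 and 1.54, *Gclc* at 0.65, 1.14 and 1.47, *Osgin1* at 0.16, 1.12 and 1.66 and *Hmox1* at 0.21, 0.89 and 1.11, all largest at 4 h.

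A-485 gave 3231 lower (20.2%) and 132 higher calls (0.825%), after subtraction of a median of 0.12 over expressed genes that was larger than the 0.03 of the 4 h comparison. By gene length, the median A-485 log2 fold change was 0.01 under 10 kb, −0.81 at 100 to 300 kb and −1.80 over 300 kb. The 12 largest falls after RAD21 depletion run from 1.4 kb (*Ch25h*) to 514 kb (*Kcnd2*). Their A-485 log2 fold changes ran from −1.87 (*Kcnc1*) to −5.94 (*Edn1*), with −4.50 for *Cpne8*, −4.08 for *Wnt7a* and −3.63 for *Ccdc85a*. The higher genes *Nqo1*, *Gclc* and *Srxn1* were at −1.36, −1.23 and −0.97 there. The cohesin gene *Stag2*, which was not called after RAD21 depletion, was at −1.24.

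The 4 h depletion of the same protein in mESCs, with 12 control and 12 IAA libraries of their own and the same IAA dose, allowed a test of whether the response differed between the cell types. Cell type and labelled batch cannot be told apart, since no batch holds both. Within the mESC libraries, the first replicate of each group carries a different batch label from the others, and batch was not in the main fit. That fit estimates the spread over both cell types together, and most of its libraries are from mESCs. In mESCs 92 transcripts were called lower (0.585%) and 41 higher (0.261%) of 15732 tested. Of the 444 lower in NPCs, 297 were also tested in mESCs, and 11 of these were called lower there, or 3.70% of the 297. The 11 were 11.96% of all 92 lower calls in mESCs, of which only 73 were tested in NPCs. By adjusted p alone, 101 of the 297 were lower and 88 higher in mESCs, where 27.4% and 31% of all transcripts tested were. Of the 132 higher in NPCs, 56 were tested in mESCs and 0 were called higher there by edgeR, although 34 were higher and 8 lower by adjusted p alone. Across 14342 transcripts tested in both, the log2 fold changes had a Pearson correlation of 0.0928 and a Spearman correlation of 0.103, as a description across genes of libraries that differ in cell type and depth.

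The difference between the fold changes (NPC minus mESC) passed an adjusted p under 0.05 and 2-fold for 660 transcripts in the negative direction (3.76% of 17538 tested) and 247 in the positive (1.41%). Of the 13937 transcripts with a mean count above 20 in all 4 groups, 360 (2.58%) and 111 (0.796%) passed. Of the 444 NPC falls, 244 were measured in all 4 groups and 200 of them differed from mESCs in the negative direction and 1 in the positive. The 444 were picked by their fall in the same NPC libraries that enter the difference, so these counts are not independent of that choice. *Cpne8* had a log2 fold change of −0.13 in mESCs, where the difference was −3.62 (SE 0.085), *Col25a1* of 0.31 with a difference of −2.99 (SE 0.17), and *Egfr* of −0.84 with a difference of −1.57 (SE 0.081). *Igfbp5* and *Galnt18*, a glycosyltransferase gene, were called in opposite directions, at −1.26 and −1.51 in NPCs and 1.58 and 1.20 in mESCs, as were *Rgs6*, a regulator of G-protein signalling, at −1.19 and 1.14, and *Ptgs1*, cyclooxygenase-1, at 1.45 and −2.18. *Igfbp5* had control and IAA means of only 0.499 and 1.54 CPM in mESCs, against 593 and 253 CPM in NPCs. The mESC means were 2.94 and 6.76 CPM for *Galnt18* and 3.48 and 7.65 CPM for *Rgs6*. In the initial mESC experiment, with 2 control and 2 IAA libraries, *Igfbp5* was called higher as well (1.31, SE 0.35), but *Galnt18* was at −0.12 and *Rgs6* at 0.75 and neither was called, so their opposite calls rest on the 12 and 12 libraries. *Tiparp*, which was not called in NPCs at 0.41, had a log2 fold change of −1.29 in mESCs, a difference of 1.70 (SE 0.055), but of −0.39 in the initial mESC experiment. *Cyp1a1*, at 5.69 in NPCs, was at 0.87 in these mESCs and not called, and at 3.76 (SE 0.18) and called higher in the initial experiment. *Ahrr*, at 1.32 in NPCs, was likewise at 0.45 and 1.47, the second of these a call. The difference between the mESC experiments was not tested.

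The 11 transcripts called lower in both cell types, with the 12 and 12 mESC libraries, were *Hpgd*, which inactivates prostaglandins (−4.12 in NPCs and −1.33 in mESCs), *Ptger2*, a prostaglandin receptor (−2.44 and −1.03), *Plxna4* (−1.98 and −1.17), *Sema3c* (−1.93 and −1.18), the adhesion molecule *Dscam* (−1.76 and −1.04), *Itga9*, an integrin (−1.37 and −1.04), the receptors *Gpr83* (−1.35 and −1.65) and *Gpr139* (−1.17 and −1.01), the activin subunit *Inhbb* (−1.18 and −2.88), the transcription factor *Tfap2c* (−1.15 and −1.07) and the oxidase gene *Enox1* (−1.01 and −2.43). Of these, *Enox1* fell by more in mESCs, with a difference of 1.43 (SE 0.075), but it was at −0.13 and not called in the initial mESC experiment. For *Tfap2c* the difference was −0.07 (SE 0.13). In the initial mESC experiment *Hpgd* (−1.20) and *Tfap2c* (−1.11) were called lower too. *Sema3c* (−0.98), *Dscam* (−0.60), *Itga9* (0.05) and *Plxna4* (0.40) were not called there, and *Ptger2*, *Gpr83*, *Gpr139* and *Inhbb* were not tested. Some of the NPC calls rest on few reads. *Gpr83* had 16 and 25 counts in the NPC controls and 3 and 12 after IAA (SE 0.49). For *Gpr139* these were 22 and 31 against 11 and 11 (SE 0.39). After IAA, *Ptger2* had 14 and 5 counts and *Hpgd* 5 and 3.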

How the data were processed

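The authors deposited one table of raw read counts per transcript (27665 transcripts), made with HTSeq over whole gene bodies or, in other columns, over the first 90 kb at most. The submitters' processing notes name BWA, SAMtools 1.4 and mm10. The 4 libraries held 16946777 to 21351965 counts. Groups came from the sample titles, and 22 columns of other samples or column types were not used. Transcripts with a mean count above 20 in either group were tested with the quasi-likelihood F test of edgeR 4.0.16 (R 4.3.3, TMM factors, two-sided, Benjamini-Hochberg adjustment over all 16148), and the steps were tested on simulated data. Log2 fold changes were centred by subtracting their median (0.03) over the 9959 transcripts above 15 TPM. A call needed an adjusted p under 0.05, tested against no change before centring, and at least 2-fold. DESeq2 1.42.0 was an alternative. Genes counted over several transcripts entered lists by the transcript with the highest total.

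Named genes were, among called genes with a mean count of at least 100 in a group, a symbol that is not a clone name and both replicates changed alike, the 12 largest decreases, the 10 largest increases, and the 6 lower and 4 higher genes with the highest level. To these were added up to 4 called members of each list, all cohesin genes and all neural progenitor markers. Genes named after their values were seen were *Ahr*, *Gm48236*, *Tiparp*, *Abca8b*, *Abca9*, *Abca6*, *Sstr4*, *Thbd*, the genes called lower in both cell types that the rule did not name, and the opposite calls *Galnt18*, *Rgs6* and *Ptgs1*. The members and lists were chosen with earlier results of these data known.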

Additional observations from a re-analysis of the deposited data

Results flagged for a closer look

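Differences between NPCs and mESCs in the response to 4 h of RAD21 depletion were tested as an interaction with edgeR, and are given as NPC minus mESC on the log2 scale. Among all transcripts tested, 660 passed in the negative and 247 in the positive direction. The named genes below had a mean count above 20 in all 4 groups. Apart from *Tiparp*, they were called in the NPC libraries that also enter the difference. The direction of their values is therefore not independent of that choice. Cell type and labelled batch cannot be told apart in this comparison.

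Among the 12 largest falls in NPCs, the difference was −3.62 for *Cpne8*, −3.26 for *Ccdc85a*, −3.11 for *Cntnap4*, −2.99 for *Col25a1*, −2.95 for *Dapk2*, −2.90 for *Kcnd2* and −2.17 for *Grin2a*. The opposite calls *Galnt18* and *Rgs6* differed by −2.71 and −2.33, though *Galnt18* had no opposite change in the initial mESC experiment (−0.12). Among enzymes and binding partners of retinoic acid and Hedgehog signalling, the difference was −2.90 for *Aldh1a2*, −2.46 for *Dhrs3*, −2.03 for *Hhip* and −1.15 for *Boc*.

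Among receptors and ligands, the difference was −2.74 for *Ephb1*, −2.14 for *Tgfbr3*, −1.91 for *Kit*, −1.89 for *Ntrk2*, −1.58 for *Ror1*, −1.57 for *Egfr*, −1.42 for *Nrp1*, −1.34 for *Tgfb2* and −1.29 for *Wnt11*. Nuclear factors and signalling regulators had −2.06 for *Setbp1*, −1.98 for *Ahr*, −1.73 for *Maml2*, −1.58 for *Myc*, −1.50 for *Zeb1* and −1.11 for *Spry1*. Matrix, surface and vesicle genes had −1.95 for *St3gal1*, −1.85 for *Syt1*, −1.39 for *Fn1*, −1.37 for *Tnr* and −1.25 for *Pcdh9*.

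Positive differences were 2.08 for *Gsta3*, 1.97 for *Nqo1*, 1.70 for *Tiparp*, 1.52 for *Arc*, 1.43 for *Enox1*, 1.404 for *Srxn1*, 1.22 for *Gclc*, 1.20 for *Slc26a2* and 1.14 for *Slc7a11*. For *Enox1* the positive value stands for a larger fall in mESCs, and for *Tiparp* for a fall in mESCs beside a small positive value in NPCs. In the initial mESC experiment neither gene was called, at −0.13 and −0.39. In the other 7 the change in NPCs was an increase.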

How the results depend on the processing

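The number of genes called after 4 h of IAA moved mainly with the fold threshold: 1060 lower and 471 higher at 1.5-fold, and 3412 and 2971 with none. With a mean count above 100, 44 were higher. With DESeq2, RLE factors, no centring, any count, the 2 h libraries in the fit or the length trend subtracted, between 313 and 461 were lower and between 91 and 177 higher. Leaving out 1 library at a time gave 426 to 462 lower and 136 to 167 higher. The control and IAA libraries of the same replicate number did not deviate together (r = −0.00585 over 9959 genes), so the numbers were not taken as pairs. With the replicate block 446 were lower, 443 of them among the 444, and 132 higher, 129 of them shared. The count of more negative and more positive differences from mESCs was 407 and 116 against the initial mESC experiment with 2 libraries a group, of which 331 and 69 were shared, 360 and 111 with a mean count above 20 in all 4 groups, 612 to 647 and 221 to 233 with 1 NPC library left out, and 646 and 243 with the replicate block.

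Of the named genes, 6 cohesin genes that were not called changed sign. Most were near 0, but *Hdac8* was at −0.21 with an adjusted p of 0.0126 in edgeR. With the length trend subtracted, *Hdac8* was at 0.0891, *Wapl* at 0.0414, *Ctcf* at 0.0102, *Stag2* at 0.19 and *Cdca5* at −0.0288. *Stag2* was at 0.00779 without centring. Leaving out 1 library at a time gave −0.0567 to 0.0145 for *Stag2*, −0.00366 to 0.0475 for *Nipbl* and −0.0438 to 0.122 for *Cdca5*. Genes no longer called with the length trend subtracted included *Syt1*, *Maml2*, *Tnr*, *Ror1*, *Pcdh9*, *Peak1*, *Nrg3* and *Wnt7b*. The cause of these changes was not tested. *Enox1* (565 kb, −1.01) and *Rgs6* (545 kb, −1.19), named for the comparison with mESCs, are long genes as well, and *Enox1* lies close to the 2-fold threshold. *Hes5* rests on 6 and 25 counts in the controls and 30 and 37 after IAA.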
